A study of Mus musculus with 8 samples.

Results

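Of 185247 merged ATAC-seq regions of the mouse lens, 4482 (2.42%) lacked a peak in newborn (P0.5) epithelium but held one in each of the other lists, from embryonic (E14.5) epithelium, embryonic fibers and newborn fibers. They are called here the regions without a P0.5 epithelium peak, and embryonic and newborn stand for E14.5 and P0.5 throughout. They were found by joining the 4 peak lists of the study, merging peaks that lay within 10 bp of each other on chromosomes 1 to 19 and X, and keeping the merged regions with that pattern. The 4 groups were the epithelium and the fibers of lenses from CD1 mice, an outbred strain, at E14.5 before birth and at P0.5 after it, each with 2 libraries. The labels name neither a mutation nor a treatment. Both tissues were separated by microdissection from lenses that were pooled within a sample. The paper's methods give the most cells per reaction for P0.5 epithelium, fewer for P0.5 fibers and the fewest for the E14.5 samples. A single amount of the transposase that cuts the DNA is stated, so cell input cannot be told apart from tissue and stage. The 2 libraries of a group were pooled before peaks were called, so each group gave 1 list and no value below has an error between replicates.

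ATAC-seq uses the transposase Tn5 to cut accessible DNA, and a peak marks a place where sequenced fragments pile up. The lens is a closed tissue with a single layer of epithelial cells over its anterior face. At the equator these cells leave the cell cycle and elongate into fibers, which fill with crystallins, build a specialised membrane skeleton and later lose their nuclei. Enhancers that serve this program lie largely outside promoters and are read by transcription factors such as Pax6, Prox1, Sox1, Pitx3 and the large Maf protein c-Maf, a direct activator of crystallin genes. Promoters of lens genes were open in the labelled tissues. The promoters of Pax6, Foxe3, Cryaa, Mip and Bfsp2 held a peak in all 4 lists, those of fiber genes such as Mip, the fiber water channel, also in both epithelium lists. The promoter of Foxe3, a factor of the lens epithelium, stood 35.4 times over the background in P0.5 epithelium and 15.5 times in newborn fibers, and that of Mip 11.8 and 23.3 times. The Cryaa promoter stood at 21.4 and 23.3 times, and that of Bfsp2, a fiber gene, was higher in the epithelium with 26.6 against 23.3 times. Of 48 genes that mark other cells of the eye, a promoter peak was present at 27 in P0.5 epithelium and at 19 in newborn fibers, and at 32 in each embryonic list. A region without a P0.5 epithelium peak at the promoter or in the gene body was present at 3 of them (6.25%, against 10.4% of all curated genes), Pou4f2, Spi1 and Pdgfra, or in 3 of 26 regions with a peak in the 3 other lists (11.5%, Wilson 95% interval 4.0 to 29.0, which holds the 16.8% over all genes).

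The sequences of 8 such regions are printed because they lay at genes of lens fibers, the lens capsule, FGF and Wnt signalling, or were among the strongest of all. Each shows 200 bases around the summit of its strongest peak on the plus strand of RefSeq's GRCm38 (mm10), free of annotated exons. Capitals mark matches to the consensus letters TGCTGA (Maf), GGAATG (Tead), ACAAAG (Sox) and TGANTCA (AP-1), searched on both strands.
Caprin2 intron, chr6:148858765-148858964: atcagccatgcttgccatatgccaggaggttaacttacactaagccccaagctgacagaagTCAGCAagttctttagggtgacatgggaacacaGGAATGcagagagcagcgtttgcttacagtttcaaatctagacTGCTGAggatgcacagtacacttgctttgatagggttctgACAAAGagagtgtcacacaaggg
Intergenic region nearest to Gm30712, chr8:116043450-116043649: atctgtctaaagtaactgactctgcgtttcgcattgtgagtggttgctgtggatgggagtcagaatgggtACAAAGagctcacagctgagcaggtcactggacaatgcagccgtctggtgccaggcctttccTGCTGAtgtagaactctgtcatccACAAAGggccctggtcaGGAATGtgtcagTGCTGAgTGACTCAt
Lama1 intron, chr17:67732096-67732295: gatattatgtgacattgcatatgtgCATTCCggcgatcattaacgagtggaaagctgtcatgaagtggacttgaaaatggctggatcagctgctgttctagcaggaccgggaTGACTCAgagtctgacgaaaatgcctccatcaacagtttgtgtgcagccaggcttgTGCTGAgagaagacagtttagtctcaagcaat
Itgb5 intron, chr16:33872187-33872386: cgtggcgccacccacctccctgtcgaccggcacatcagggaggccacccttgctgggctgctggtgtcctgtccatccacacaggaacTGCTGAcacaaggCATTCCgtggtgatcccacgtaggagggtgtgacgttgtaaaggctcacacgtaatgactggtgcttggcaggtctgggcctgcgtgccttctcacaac
Fgfr2 intron, chr7:130165677-130165876: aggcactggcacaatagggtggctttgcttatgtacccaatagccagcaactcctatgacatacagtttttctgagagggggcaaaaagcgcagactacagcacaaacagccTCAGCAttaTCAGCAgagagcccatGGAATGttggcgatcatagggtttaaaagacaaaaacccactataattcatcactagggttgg
Etv5 intron, chr16:22389155-22389354: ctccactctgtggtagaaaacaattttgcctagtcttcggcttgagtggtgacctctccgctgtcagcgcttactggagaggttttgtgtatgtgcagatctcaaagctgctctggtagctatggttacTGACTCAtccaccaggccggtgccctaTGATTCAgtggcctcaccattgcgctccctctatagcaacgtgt
Wnt7a intron, chr6:91366922-91367121: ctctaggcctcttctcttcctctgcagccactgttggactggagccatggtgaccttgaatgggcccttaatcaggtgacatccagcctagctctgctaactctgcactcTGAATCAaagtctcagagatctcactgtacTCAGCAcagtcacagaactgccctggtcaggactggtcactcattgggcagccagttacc
Prox1 intron, chr1:190141573-190141772: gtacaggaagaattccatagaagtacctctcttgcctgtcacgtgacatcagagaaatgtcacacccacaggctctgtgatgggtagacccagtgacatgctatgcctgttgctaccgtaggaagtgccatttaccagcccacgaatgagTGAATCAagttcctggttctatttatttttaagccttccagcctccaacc
The windows at Caprin2, Gm30712, Lama1, Itgb5 and Fgfr2 held both the Maf and the Tead letters. The window nearest to Gm30712 held matches to all 4 motifs, with a Maf match at position 186 and an AP-1 match at position 193. The windows at Etv5 and Prox1 held matches to the AP-1 letters, in which N allows any base, and no Maf match. The match at Prox1 read TGAATCA, and those at Etv5 read TGACTCA and TGATTCA.

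The crystallin genes had 2 such regions, both at promoters, and for these the 200 bases before the start site are shown on the strand of the gene.
Cryba4 promoter, minus strand, chr5:112252519-112252718: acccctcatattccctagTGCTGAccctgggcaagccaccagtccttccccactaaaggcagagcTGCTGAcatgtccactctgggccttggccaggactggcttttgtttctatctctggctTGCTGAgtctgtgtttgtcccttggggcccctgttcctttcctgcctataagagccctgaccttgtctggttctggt
Crygb promoter, minus strand, chr1:65082291-65082490: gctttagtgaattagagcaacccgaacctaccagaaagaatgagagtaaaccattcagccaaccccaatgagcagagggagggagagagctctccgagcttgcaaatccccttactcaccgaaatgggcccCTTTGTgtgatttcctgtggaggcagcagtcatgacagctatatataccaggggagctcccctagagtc
The Cryba4 window held 3 Maf matches, at positions 19, 66 and 124. The Crygb window held no Maf match and 1 Sox match.

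The first question was how high the peaks of these regions stood in the lists that called them. The authors' fold enrichment rises in equal steps within a list, each step being 1 fragment over the summit, so the number of fragments could be read back for every peak. The weakest called peaks rested on 7 fragments in both epithelium lists, on 8 in E14.5 fibers and on 6 in newborn fibers. The background was 1.61 fragments per base in E14.5 epithelium, 2.37 in embryonic fibers, 1.36 in P0.5 epithelium and 1.16 in newborn fibers. The regions without a P0.5 epithelium peak were of modest height in every list. The median region had 12 fragments over the summit in E14.5 epithelium (quartiles 10 and 17), 20 in embryonic fibers (13 and 32) and 8 in P0.5 fibers (7 and 10). Relative to the background of each list these medians were 7.46-fold, 8.43-fold and 6.91-fold. Counting error alone (exact Poisson, 95%) gives a range of 6.20 to 21.0 for the 12 fragments and of 3.45 to 15.8 for the 8.

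In P0.5 epithelium a stretch of 90 bp, the shortest peak called there, was called from 7 fragments upwards, so a region without a peak held at most 6 over such a stretch. That ceiling corresponds to 4.43 times the background, and counting error (exact Poisson, 95%) extends it to 13.1 fragments or 9.64 times the background. In 383 regions (8.55%) the counting interval in E14.5 epithelium lay wholly above that extended ceiling. The same held for 1054 regions (23.5%) in E14.5 fibers and for 6 (0.134%) in newborn fibers. These shares only describe the regions, because calls in the same lists chose them and no such share was computed for other regions. The lists also differ in background and in the count at which peaks begin, so the shares are not compared between lists. Conversely, 452 regions (10.1%) stood in E14.5 epithelium below the weakest peak that newborn epithelium called, when both are expressed over background. In E14.5 fibers 897 regions did. In P0.5 fibers the count was 0, which the calling limits fixed in advance. The weakest peak called there stood at 5.18 times the background, above the 5.16 of the weakest P0.5 epithelium peak. The counts in P0.5 epithelium themselves were not observed and may lie anywhere below the ceiling, which is the same for every region because the rule sets it. Fewer cells with an open site and less opening per cell cannot be told apart in these bulk samples. Neither can be told apart from the difference in cell input between the groups.

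**Figure D1:**
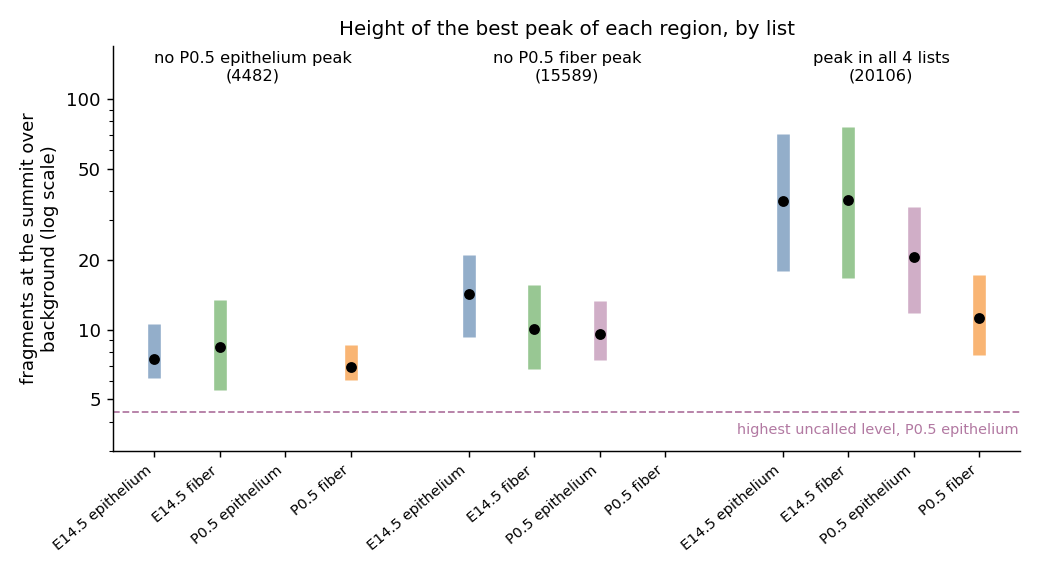
Fragments over the summit of the best peak of a region, divided by the background of the list (log axis), with bars from the lower to the upper quartile and points at the median. The 4482 regions without a P0.5 epithelium peak have medians of 7.46, 8.43 and 6.91 in the lists that called them, close above the dashed line at 4.43, the highest level that P0.5 epithelium leaves uncalled.

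Regions with a peak in all 4 lists were far higher. Their median over background was 36.1 in E14.5 epithelium, 36.7 in embryonic fibers, 20.7 in P0.5 epithelium and 11.2 in newborn fibers. At these 20106 shared regions the level in P0.5 epithelium was a median of 0.556 times that in embryonic epithelium (quartiles 0.426 and 0.763), and it was lower in 88.9% of them. In P0.5 fibers, where the regions without a P0.5 epithelium peak did hold one, it was a median of 0.315 times that in embryonic epithelium (quartiles 0.227 and 0.502) and lower in 94.8%. To drop from the median height of 7.46 to the ceiling of 4.43, a region without a P0.5 epithelium peak needed a ratio of 0.593. The part of this general difference in level in the absence of peaks was not tested.

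Absence of the P0.5 epithelium peak followed the height at E14.5. Of 24588 regions with a peak in the 3 other lists, 18.2% (Wilson 95% interval 17.8 to 18.7) lacked one in P0.5 epithelium. In the lowest quartile of the E14.5 epithelium list by fold enrichment 80.4% lacked it, in the second 66.3%, in the third 31.4% and in the highest 2.07%. Over the quartiles of the E14.5 fiber list it was 74.1%, 62.8%, 40.3% and 7.36%. Absence of the P0.5 fiber peak, among regions with a peak in the 3 other lists, stood at 70.5%, 70.9%, 66.8% and 29.3% over the quartiles of E14.5 epithelium, and at 84.3%, 81.2%, 71.7% and 26.5% over those of the E14.5 fiber list. As a whole 43.7% of the 35695 regions with a peak in the 3 other lists lacked only the P0.5 fiber peak. Counted in the same way, 2.24% of 20567 regions lacked only the E14.5 epithelium peak and 1.7% of 20454 only the E14.5 fiber peak. These shares are descriptions, since the heights and the absence come from the same lists.

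**Figure D2:**
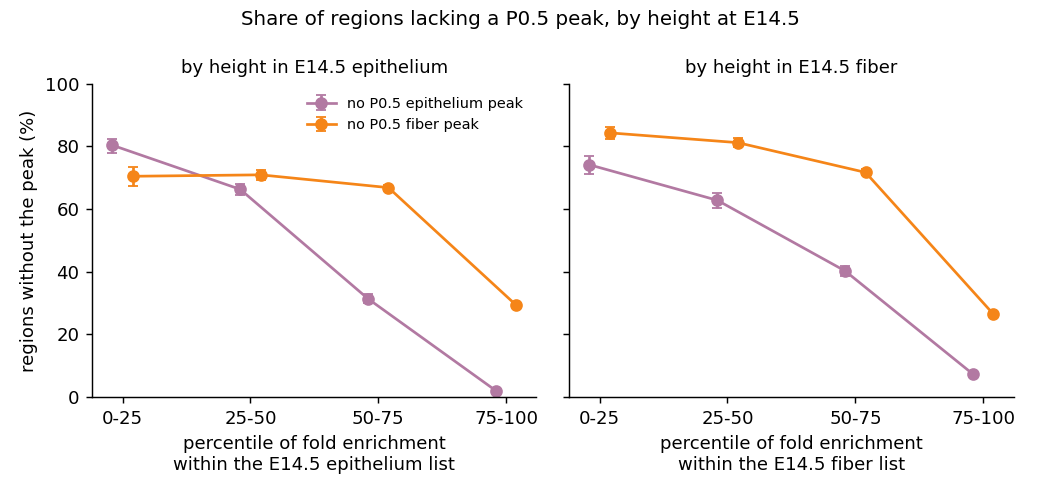
Share of regions that lack a P0.5 epithelium peak (purple) or a P0.5 fiber peak (orange), among regions with a peak in the 3 other lists, by quartile of fold enrichment in the E14.5 epithelium list (left) and the E14.5 fiber list (right), with Wilson 95% intervals. Absence in P0.5 epithelium falls from 80.4% to 2.07% over the quartiles of E14.5 epithelium, and absence in P0.5 fibers from 70.5% to 29.3%.

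Within each list the regions stood in the middle ranks. As a percentile of fold enrichment, where 100 is the strongest peak of a list, the median was 63.0 in E14.5 fibers, 41.6 in embryonic epithelium and 41.0 in P0.5 fibers. These percentiles come from the lists that the rule used, which differ in length (123673, 99901 and 62903 peaks in that order) and in the height at which peaks begin, so they are not compared between lists. The deposited q value was under 0.001 in 89.9% of the regions for E14.5 epithelium, 91.2% for embryonic fibers and 47.3% for P0.5 fibers. In 1782 regions (39.8%) it was so in all 3 lists. Just inside the rule, the weakest peaks had −log10 q values of 1.35 and 1.33 in E14.5 and P0.5 fibers and of 1.62 in embryonic epithelium. Just outside it, 101 regions of all 4 lists had a P0.5 epithelium peak with a −log10 q of 1.84, the lowest of that list in such regions.

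P0.5 epithelium peaks were nevertheless present nearby. The nearest one lay a median of 3035 bp away, within 1 kb of 1001 regions (22.3%) and within 100 bp of 27 regions. Other regions without a P0.5 epithelium peak had one within 1 kb in 15.4%. The closest gap was 11 bp, just beyond the merging distance of 10 bp. Among regions at named genes, the Ank2 region on chr3:126943893-126944980 lay 12 bp from a P0.5 epithelium peak.

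The second question was where in the genome these regions lie. Most lay in gene bodies, as did most merged regions. Within 2 kb of a curated RefSeq start site lay 18.5% of them (Wilson 95% interval 17.4 to 19.6), a further 59.5% lay in gene bodies, 19% within 50 kb of a gene and 3.08% farther out. Only 221 (4.93%) overlapped a start site, and 79.7% of the summits inside gene bodies were intronic. The median distance to a start site was 11.3 kb. Over all merged regions 55.0% lay in gene bodies, 7.86% overlapped a start site and the median distance was 17.8 kb.

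Regions of all 4 lists lay at promoters in 63.9% and overlapped a start site in 58.7%, at a median distance of 0.239 kb. The promoter share of regions without a P0.5 epithelium peak was 45.5 percentage points lower (Newcombe 95% interval of the difference, as members minus others, −46.8 to −44.1). Against regions that lacked only the P0.5 fiber peak it was 3.85 points higher (2.61 to 5.14) and the gene body share 10.5 points higher (8.85 to 12.1). The share within 50 kb of a gene was 6.92 points lower in the same comparison (members minus others −8.23 to −5.56). Over all merged regions 16.4% lay at promoters. These intervals cover counting error only and treat regions as independent.

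**Figure D3:**
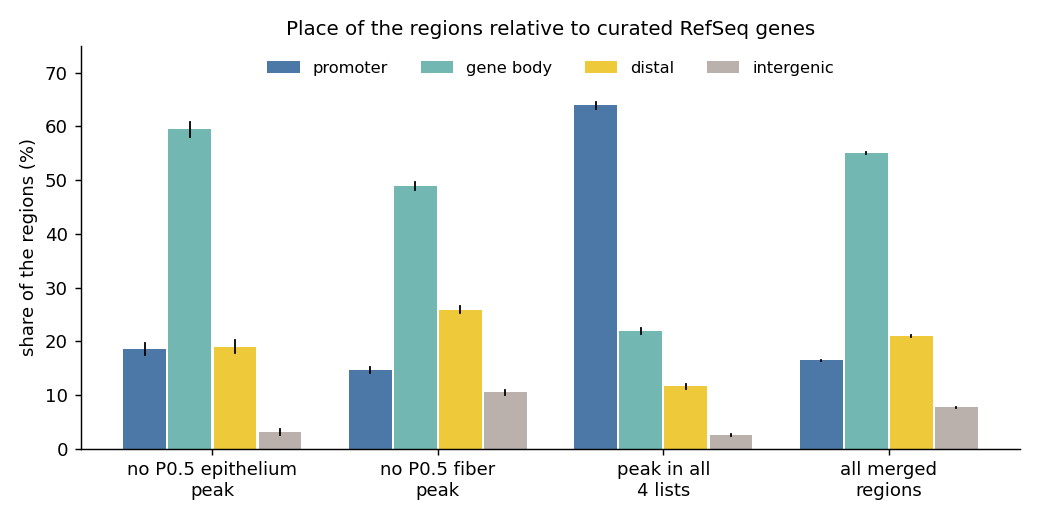
Share of regions within 2 kb of a start site (promoter), in a gene body, within 50 kb of a gene (distal) or farther out (intergenic), for 4 sets of regions, with Wilson 95% intervals as black lines. Regions without a P0.5 epithelium peak lie in gene bodies in 59.5% and at promoters in 18.5%, whereas 63.9% of regions with a peak in all 4 lists lie at promoters.

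Their width and GC content lay between those of the same 2 sets. The median width was 588 bp, against 1177 bp in regions of all 4 lists and 476 bp in regions lacking only the P0.5 fiber peak. The median GC content of the 200 bp around the summit was 56.0%, against 63.5% and 52.5%. A ratio of observed to expected CpG above 0.6, as in CpG islands, was found in 10.1% of the regions, against 61.2% and 10.9%. Repeats covered more than 50% of the window in 30 regions (0.669%), against 0.214% of regions of all 4 lists, 1.04% of those lacking only the P0.5 fiber peak and 3.02% of all merged regions.

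Chromosome X stood apart. It held 11 regions without a P0.5 epithelium peak, 2.87% of the 383 regions of that chromosome with a peak in the 3 other lists. On the autosomes the same share ran from 14.3% on chromosome 13 to 21.2% on chromosome 8. Regions of all 4 lists were more frequent on X, 19.5% of merged regions against 9.87% to 12.5% on the autosomes. The sex of the animals was not given in the sources used here.

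The third question was which sequence motifs the regions share. Consensus letters of 21 factors were searched on both strands of the 200 bp around the summit, and a match is a description and not a bound site. The Maf letters TGCTGA stood out. They occurred in 28.0% of the regions without a P0.5 epithelium peak (1254 of 4482), in 23.5% of regions lacking only the P0.5 fiber peak and in 16% of regions of all 4 lists. Over all merged regions 23.1% held them. The difference from regions lacking only the P0.5 fiber peak was 4.52 percentage points (Newcombe 95% interval 3.06 to 6.01). Outside promoters and at a GC content of 50 to 60% it was 5.73 points (3.72 to 7.77), with 30.8% against 25%. In the same restricted set, regions of all 4 lists held the Maf letters in 29.5%, and the difference from these was 1.27 points (−0.99 to 3.54), an interval that holds 0. The summit that set the window came from E14.5 fibers in 68.4% of the regions without a P0.5 epithelium peak, in 43.2% of those lacking only the P0.5 fiber peak and in 77.7% of those in all 4 lists. Among regions with an E14.5 fiber summit, the Maf letters occurred in 30.7% against 25.2% of regions lacking only the P0.5 fiber peak (difference 5.52 points, 3.60 to 7.47). With the restriction to 50 to 60% GC outside promoters added, it was 33.8% against 26.3% (7.52 points, 4.88 to 10.2). Regions of all 4 lists held the Maf letters in 32.1% under both conditions, a difference of 1.68 points (−1.14 to 4.52) whose interval holds 0. With equal numbers of peaks in each list the share was 32.0% against 23.9% of regions lacking only the P0.5 fiber peak (8.07 points, 5.79 to 10.4).

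The Tead letters GGAATG, read by partners of the growth regulator Yap, were less frequent than in regions lacking only the P0.5 fiber peak. They occurred in 12.9% against 19.8%, a difference of −6.88 points (−8.02 to −5.69) that was −5.93 points (−7.51 to −4.28) outside promoters at 50 to 60% GC. Among regions with an E14.5 fiber summit that difference was −0.89 points (−2.28 to 0.55), an interval that holds 0. With equal numbers of peaks in each list it was −4.38 points (−6.06 to −2.56). Against regions of all 4 lists, with 9.71%, the direction turned (3.18 points higher, 2.15 to 4.27), and it turned back outside promoters at 50 to 60% GC (−3.25 points, −5.01 to −1.44). The share over all merged regions was 13.7%. The CTCF letters are CCA, any 2 bases, AGG, any base and GGC, and CTCF is the protein that anchors chromatin loops. They occurred in 3.28% against 5.23% (difference −1.95 points, −2.56 to −1.3) and in 2.13% of all merged regions. Regions of all 4 lists held them in 3.39% (difference −0.11 points, −0.66 to 0.50), and outside promoters at 50 to 60% GC the difference from these was −4.1 points (−5.15 to −3.01). With equal numbers of peaks in each list, which left 1778 regions without a P0.5 epithelium peak, the CTCF share in them was 5.85% against 6.71% of those lacking only the P0.5 fiber peak (difference −0.864 points, −1.97 to 0.407), an interval that holds 0, and it was higher than the 3.51% in regions of all 4 lists (2.34 points, 1.3 to 3.55). With all peaks and an E14.5 fiber summit it was 3.30% against 7.44% (difference −4.14 points, −5.01 to −3.22). Lower shares than in regions lacking only the P0.5 fiber peak were also found for the letters of NFY (CCAAT, 17.1% against 22.5%), Nfat (GGAAAA, 9.62% against 14.1%), Pitx (TAATCC, 4.42% against 7.54%) and Fox (TGTTTAC, 1.52% against 2.73%). All 4 intervals of the differences lay below 0, also outside promoters at 50 to 60% GC. With the E14.5 fiber summit required as well, those of NFY and Nfat still did and those of Pitx and Fox held 0. With equal numbers of peaks all 4 lay below 0, and the Nfat difference was −2.65 points (−4.22 to −0.93) in place of −4.46. The Sp1 letters GGGCGG had 10.9% against 12.1% (difference −1.17 points, −2.19 to −0.09). Intervals lay below 0 also outside promoters at 50 to 60% GC, with and without the E14.5 fiber summit. With equal numbers of peaks the Sp1 difference was −2.15 points (−3.64 to −0.512). Outside promoters without the GC limit it was 0.26 points (−0.78 to 1.36), an interval that holds 0. The Pax letters TCACGC had an interval that held 0 over all regions and one below 0 outside promoters at 50 to 60% GC (−1.01 points, −1.82 to −0.12) that held 0 again with the E14.5 fiber summit required (−0.62 points, −1.67 to 0.53). The lower shares of the Sox letters (15.6% against 19.1%) and the Gata letters AGATAA (4.89% against 6.86%) did not keep that property in the restricted set, where the Sox difference was −0.76 points (−2.40 to 0.95). With equal numbers of peaks the Sox difference was −1.1 points (−2.97 to 0.887), an interval that holds 0. AP-1 letters (7.32% against 7.37%) and Meis letters TGACAG (20.6% against 20.8%) had intervals that held 0. At 50 to 60% GC outside promoters with an E14.5 fiber summit the Meis difference was 2.69 points (0.29 to 5.15). Among regions with an E14.5 fiber summit the AP-1 difference was 1.3 points (0.19 to 2.48). The letters overlap in part, since a Maf match can run into an AP-1 match.

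**Figure D4:**
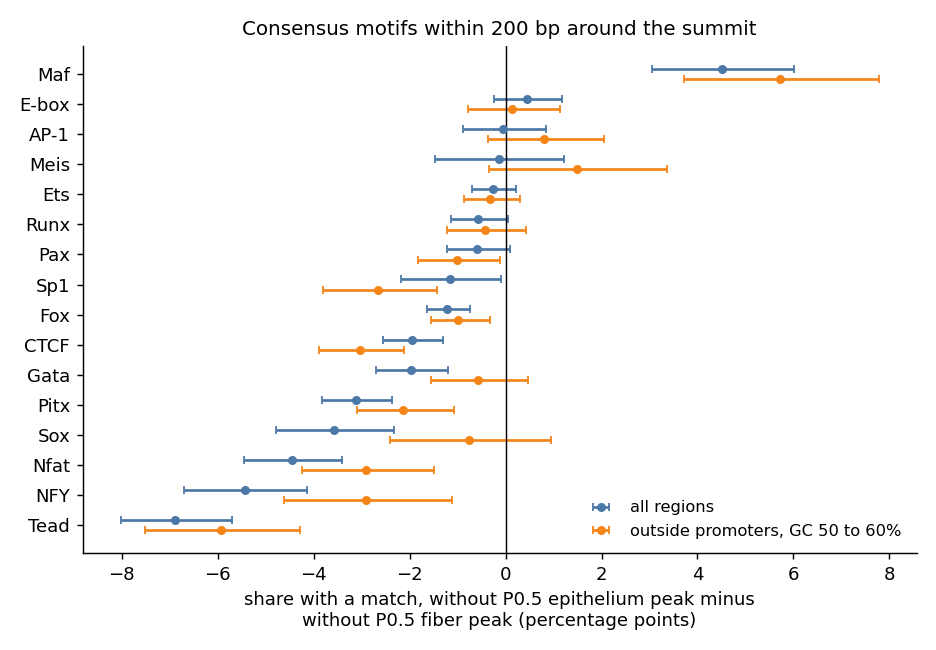
Difference in the share of regions with a motif match, regions without a P0.5 epithelium peak minus regions lacking only the P0.5 fiber peak, in percentage points with Newcombe 95% intervals, for motifs found in more than 1% of either set. Maf lies at 4.52 for all regions (blue) and at 5.73 outside promoters at 50 to 60% GC (orange), and Tead lies lowest at −6.88 and −5.93, with −0.89 (not drawn) where the summit came from E14.5 fibers.

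At the level of genes, 2710 of 26089 curated genes (10.4%) had a region without a P0.5 epithelium peak at the promoter or in the gene body, 909 genes (3.48%) at the promoter. Among the 19918 genes with any merged region the share was 13.6%. Most, 2069, had only 1 such region. Long genes hold more regions of every kind, so gene groups are given by regions as well. The median gene length was 13.5 kb over all genes, 31.4 kb in the fiber membrane list, 60.9 kb in that of FGF signalling and 78.8 kb in that of the capsule. The part of gene length in the shares was not tested. Over all genes, such regions made up 16.8% of the 20747 regions with a peak in the 3 other lists. The groups are lists of known genes, and their values are descriptions without a test.

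**Figure D5:**
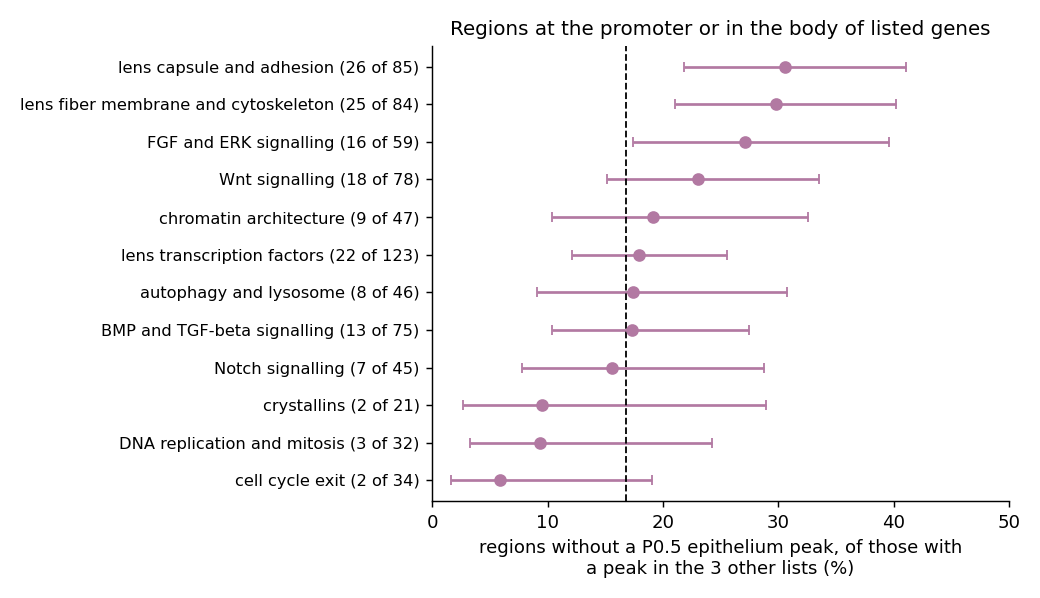
Share of regions without a P0.5 epithelium peak among regions with a peak in the 3 other lists, at the promoter or in the body of the genes of 12 lists, with Wilson 95% intervals and the number of regions after each name. The dashed line marks 16.8% over all curated genes, and the lists of the capsule (30.6%), the fiber membrane (29.8%) and FGF signalling (27.1%) lie above it with their intervals. Absence of the P0.5 fiber peak (not drawn) is 52.8%, 44.9% and 25.9% in these lists, against 36.5% over all genes.

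Of 30 genes of the fiber membrane and cytoskeleton, 15 carried 25 regions without a P0.5 epithelium peak, 29.8% of the 84 regions tested there (21.0 to 40.2). Set against all 1062 merged regions at these genes the share was 2.35%, below the 2.64% over all curated genes. Their median over the summit was 20 fragments in E14.5 fibers, 12 in embryonic epithelium and 9 in P0.5 fibers, against 19, 12 and 8 over all such regions at genes. With a q value under 0.001 required in the 3 lists, 10 of the 30 genes carried such a region, and these were 26.3% of 57 regions tested against 8.73% over all genes. Over all curated genes 5.05% (1317 of 26089) carried one at that q value. The strongest was the intron of Caprin2, whose product is an RNA-binding protein of fiber cells. Its region on chr6:148858512-148858993, 37.4 kb from the start site, had 86 fragments over the summit in E14.5 epithelium, 280 in embryonic fibers and 14 in P0.5 fibers. These are 53.5, 118 and 12.1 times the background, and no P0.5 epithelium peak lay within 26.8 kb. It was the highest of all 4482 regions in both E14.5 lists. Its sequence is the first of those shown, with 2 Maf matches and 1 Tead match.

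Spectrin and its partners line the inner face of the fiber membrane. The Sptbn1 region, a β-spectrin intron on chr11:30136712-30139781, had 191 fragments in E14.5 fibers but 9 in embryonic epithelium and 8 in P0.5 fibers. It was high in E14.5 fibers and near the calling limit in the others. From here on, 3 counts in a row are fragments over the summit in embryonic epithelium, embryonic fibers and newborn fibers. The 2 regions of Sptan1, which encodes α-spectrin, had 15, 33 and 7 fragments and 12, 10 and 7 fragments. Ank2, the gene of the adaptor ankyrin-B, had 2 regions with 10, 19 and 7 and with 9, 12 and 8 fragments. Both were low in every list.

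The Bfsp1 intron on chr2:143832762-143835783 had 12, 41 and 9 fragments. Bfsp1 encodes filensin, a subunit of the beaded filament that is particular to lens fibers. Gja3, the gene of the gap junction protein connexin 46, had 2 intronic regions with 9, 25 and 9 and with 9, 15 and 11 fragments. The adhesion gene Nrcam had 1 region, on chr12:44438778-44439489, with 17, 61 and 14 fragments. Epha2, a receptor kinase that orders fiber cells, had 3 regions with 10 to 13 fragments in E14.5 epithelium, 10 to 40 in embryonic fibers and 9 to 11 in P0.5 fibers. The 3 regions of Myh9, a nonmuscle myosin, had 11 to 24, 17 to 59 and 8 to 11. The Birc7 promoter, at an inhibitor of apoptosis, had 9, 39 and 7 fragments. The Tdrd7 intron, in a gene of fiber RNA granules, had 8, 20 and 10. The Grifin promoter, upstream of a lens galectin, reversed the order of the E14.5 lists with 29 fragments in epithelium and 20 in fibers, and had 9 in P0.5 fibers.

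Crystallin genes had a P0.5 epithelium peak at most of their regions that the other lists shared. Of 20 genes 2 carried such a region, which is 2 of 21 regions tested (9.52%, 2.65 to 28.9, an interval that holds the 16.8% of all genes). The Cryba4 promoter on chr5:112251527-112253813, at a β-crystallin gene, had 11 fragments in E14.5 epithelium, 163 in embryonic fibers and 13 in P0.5 fibers. The Crygb promoter on chr1:65079285-65082619, at a γ-crystallin gene, had 13, 196 and 15. In E14.5 fibers both stood far above the median of 20 fragments, in P0.5 fibers above the upper quartile of 10 and in embryonic epithelium near the median of 12. Of their upstream sequences that of Cryba4 held 3 Maf matches. The γ-crystallin genes resemble each other in sequence, and how reads that fit more than one of them were placed is not given in the sources used here.

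Lens capsule and adhesion genes had the highest share of tested regions among the 12 lists, close to the 29.8% of the fiber membrane list. Absence of the P0.5 fiber peak, among regions with a peak in the 3 other lists, was also frequent there. It was 52.8% at the capsule genes against 36.5% over all genes. In the lists of the fiber membrane and of FGF signalling it was 44.9% and 25.9%. The capsule is the basement membrane around the lens, laid down by both cell types. Of 28 genes 11 carried 26 such regions, 30.6% of 85 tested (21.8 to 41.0), with medians of 11, 16 and 8 fragments. At q under 0.001 in the 3 lists it was 9 genes, with 16.1% of 56 regions against 8.73% over all genes. At that q value the fiber membrane list (26.3%) and the FGF list (16.7%) stood higher. No interval was computed for these stricter shares. Lama1, the laminin α1 gene, had 4 intronic regions, and 1 region at the gene had a peak in all 4 lists. The strongest of the 4, on chr17:67731842-67732718, had 33, 94 and 8 fragments. Itgb5, an integrin subunit, had 2 intronic regions, the stronger on chr16:33871990-33872558 with 39, 95 and 10 fragments, and a P0.5 epithelium peak lay 0.885 kb away. Col4a2, a chain of collagen IV, had 4 regions with 9 to 15, 10 to 21 and 6 to 9 fragments. Hspg2, the perlecan gene, had 4 with 8 to 13, 10 to 20 and 7 to 11. Col4a1 had 1 region with 19, 41 and 10, and Pard3, a gene of epithelial polarity, had 2 with 13, 46 and 11 and with 8, 52 and 8. The highest counts of the list at E14.5 were thus those of Lama1 and Itgb5, which in P0.5 fibers stood at 8 and 10.

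FGF is the signal that drives fiber differentiation, through receptors and the ERK and Akt kinases. Of 27 genes of this pathway 8 carried 16 regions, 27.1% of 59 tested (17.4 to 39.6), with medians of 11, 21 and 8.5 fragments. At q under 0.001 in the 3 lists it was 5 genes, with 16.7% of 48 regions against 8.73% over all genes. The receptor genes Fgfr1, Fgfr2 and Fgfr3 were all among the 8. The Fgfr2 intron on chr7:130165530-130165968, 101 kb from the start site, had 16, 58 and 7 fragments, with the nearest P0.5 epithelium peak at 25.3 kb. The second Fgfr2 region had 11, 28 and 6. The 3 regions of Fgfr1 had 8 to 13, 9 to 26 and 7 to 9 fragments, and that of Fgfr3 had 11, 18 and 11. The adaptor gene Frs2 had a promoter region with 11, 21 and 8 fragments, and the phosphatase gene Ptpn11 had 2 regions with 13, 39 and 8 and with 9, 11 and 9. Akt1 carried 5 regions with 9 to 18, 12 to 27 and 7 to 12 fragments. Etv5, an Ets factor gene that responds to FGF and is counted among the transcription factors, had an intronic region on chr16:22389056-22389628 with 21, 107 and 11 fragments and no P0.5 epithelium peak within 15.9 kb.

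Of 28 genes of Wnt signalling, which supports the lens epithelium, 11 carried 18 regions, 23.1% of 78 tested (15.1 to 33.6). The interval holds the 16.8% of all genes. The ligand gene Wnt7a had the region with the most fragments in both fiber lists, on chr6:91365662-91367555, with 19, 90 and 16 fragments and the nearest P0.5 epithelium peak at 18.6 kb. Wnt7b had 3 regions with 7 to 9, 12 to 22 and 8 to 15 fragments, and Wnt5b 2 with 11, 29 and 7 and with 21, 54 and 9. The coreceptor genes Lrp5 and Lrp6 had 3 and 1, of which that of Lrp6 had 21, 43 and 8. The feedback inhibitor gene Axin2 had 1 with 11, 19 and 9. The secreted inhibitor genes Dkk3, Sfrp1 and Sfrp2 had 1 each. At q under 0.001 in the 3 lists it was 5 genes, with 11.8% of 51 regions against 8.73% over all genes.

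Transcription factor genes of the lens were close to the share over all genes, 17.9% of 123 regions (12.1 to 25.6), in 18 of 46 genes. At q under 0.001 in the 3 lists it was 10 genes, with 10.6% of 94 regions against 8.73% over all genes. Prox1, which is needed for fiber elongation, had 3 intronic regions. That on chr1:190124966-190126127 had 25, 41 and 9 fragments, that on chr1:190140614-190142240 had 18, 43 and 8, and that on chr1:190142383-190143354 had 15, 31 and 8. A peak in all 4 lists was present in 9 other regions of Prox1. The Gata3 regions had 14, 43 and 11 and 12, 27 and 6 fragments, and the 2 of Meis1 had 8, 31 and 10 and 15, 48 and 12. Pitx3, Mafk, Meis2, Tfap2a, Tead1, Tead3, Tead4, Yap1, Rxra, Rxrb, Nfib, Mycn, Zeb2 and Smad1 had 1 region each. Their counts ran from 9 to 19 fragments in E14.5 epithelium, from 9 to 40 in embryonic fibers and from 6 to 12 in P0.5 fibers. None of these passed 40 fragments in any list, and the Yap1 region, with 9, 9 and 6, stood near the calling limit in all 3 lists.

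BMP and TGF-β signalling (13 of 75 regions, 17.3%, 10.4 to 27.4), Notch signalling (7 of 45, 15.6%, 7.75 to 28.8), autophagy and lysosome (8 of 46, 17.4%, 9.09 to 30.7) and chromatin architecture (9 of 47, 19.1%, 10.4 to 32.5) had shares whose intervals held the 16.8% of all genes. They involved 8 of 26, 4 of 18, 5 of 29 and 5 of 27 genes. At q under 0.001 in the 3 lists the numbers of genes were 4, 1, 3 and 2. The BMP receptor gene Bmpr1b had a region with 27, 24 and 6 fragments, the last being the lowest count called in P0.5 fibers. Dnmt3a, a DNA methyltransferase gene, had 5 regions, one of which had 50, 37 and 7 fragments and a CTCF match. The autophagy gene Atg7 had 4 neighbouring intronic regions with 9 to 18, 13 to 29 and 7 to 10 fragments.

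Among genes of cell cycle exit, 2 of 22 carried a region, 2 of 34 tested (5.88%, 1.63 to 19.1), and none did at q under 0.001 in the 3 lists. The members were at Cdkn1c, the fiber cell cycle inhibitor p57 (9, 18 and 8 fragments), and at E2f3 (8, 12 and 6). Among genes of DNA replication and mitosis it was 2 of 30, Mcm7 and Cdt1, with 3 of 32 regions (9.38%, 3.24 to 24.2), and 1 gene under the stricter q value. The Mcm7 region also overlapped the miRNA genes Mir106b, Mir93 and Mir25. The shares of genes were 9.09% and 6.67%, against 10.4% over all genes, and both intervals held the share of regions over all genes.

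The strongest regions were chosen by the lowest of their 3 percentiles of fold enrichment, beside the 5 strongest in P0.5 fibers and the 5 widest. A region in a gene desert on chr8:116043214-116043705 had 41, 204 and 18 fragments, the nearest P0.5 epithelium peak at 141 kb and the nearest curated start site, that of Gm30712, at 328 kb. It lay 337 kb from the start site of Maf, the gene of c-Maf (chr8:115703253-115706894), a pairing noticed after the values were seen. Further members at 347 and 480 kb from Maf had 17, 76 and 11 and 11, 28 and 6 fragments. No contact between these regions and Maf was measured. The other strong regions near start sites of protein-coding genes lay in introns at Ass1 (50, 133 and 15), Tns3 (45, 78 and 14), Plagl2 (53, 152 and 14) and Mxd3 (53, 75 and 13), in an exon of Ctc1 nearest to Aurkb (65, 68 and 13) and 42.1 kb from Nat10 (40, 98 and 14). Mxd3, a Max dimerization protein gene, lay 0.692 kb and Plagl2 0.256 kb from a P0.5 epithelium peak. The widest were at Zfyve21 (4619 bp, with 34, 159 and 18 fragments), Fev (4329 bp), Ptpru (4243 and 3952 bp) and Ccdc85c (3670 bp).

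In P0.5 fibers 2 regions stood far above the others. One on chr8:3754399-3754723, nearest to Cd209a, had 65, 262 and 103 fragments, and one on chr9:110281245-110281389 over Mir6236 had 62, 226 and 97. The next in P0.5 fibers, at Cxxc5, Gm32291 and Trim27, had 23, 22 and 21. Leaving out those 2 changed none of the median percentiles given above. The authors removed regions of a blacklist of the mouse genome after merging, a step that was not repeated here. Whether the 2 regions are places where reads pile up without open chromatin was not tested.

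The genes with the most regions were long ones. Msi2, which encodes an RNA-binding protein, had 15 over 379 kb, Arid1b, a chromatin remodelling subunit gene, 14 over 353 kb, and Sipa1l3, a gene of cell polarity, and Zmiz1 11 each. Casz1 and Ccdc85c followed with 10 and Gse1 with 9, and 2900026A02Rik, Epb41l4a, Fam53b, Ldlrad3 and Sptb had 8 each. In Ccdc85c, only 71.8 kb long, they were 21.7% of its 46 merged regions, and they lay between 7.95 and 64.3 kb from the start site with 8 to 16, 12 to 69 and 6 to 13 fragments. Sptb, another β-spectrin gene, had 8 regions of even height, with 8 to 18, 10 to 26 and 7 to 11 fragments. In Msi2 the range was wider, with 8 to 34, 10 to 79 and 6 to 11, and 2 of its 15 lay at the promoter.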

How the data were processed

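The submitters' processing notes and the methods name Trim Galore 0.4.1, Bowtie2 2.3.3.1, SAMtools 1.2, Picard 2.1.1 and MACS2 on mm10. The authors removed mitochondrial and duplicated reads and called peaks from pooled paired-end fragments at a q value of 0.05, without a named control. The deposited fold enrichment is a ratio of fragments at the summit to background, and the authors' −log10 p and −log10 q values refer to the same summit. The deposited score, a whole number made from the q value, was not used.

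Fold enrichment divided by its step gave whole numbers in 100% of peaks (within 0.001). Fragments were that number minus 1, the count that MACS2 adds, and background was 1 over the step, minus 1.

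Of the lists' 100003, 123743, 58592 and 62995 peaks (epithelium and fibers at E14.5, then at P0.5), 102, 70, 105 and 92 lay outside chromosomes 1 to 19 and X and were left out. Read depth per library was not in the lists. Peaks were merged with bedtools 2.31.1 and placed, by 1 bp of overlap, on 45657 curated RefSeq transcripts of GRCm38, whose sequence is shown here. Python 3.11.15, pandas 2.3.3, numpy 2.4.6, scipy 1.17.1, pysam 0.24.0, samtools 1.23.1 and matplotlib 3.10.9 were used, and the steps were tested on simulated data. Named genes were the listed genes with such a region, the nearest genes of the 10 strongest by lowest percentile, the 5 strongest in P0.5 fibers and the 5 widest, and the 10 genes with the most (ties kept), of which 1 is not reported here. The regions and gene lists were chosen with earlier results of these data known. Alternatives were stricter q values, equal numbers of peaks, other merge distances, promoter widths, annotations and motif windows. The restrictions by promoter, GC content and source of the summit, the stricter q value for gene lists, motif differences with equal numbers of peaks and leaving out 2 regions were chosen after seeing the data.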

Additional observations from a re-analysis of the deposited data

How the results depend on the processing

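The number of regions without a P0.5 epithelium peak was 4482. It fell to 2030 with a q value under 0.001 in all 4 lists, to 1784 with weaker peaks of the 3 lists that held the peak dropped before merging (1782 of the 4482 regions, as merged from all peaks, meet that value), and to 1778 with equal numbers of peaks. It stayed between 3096 and 4731 at q under 0.01, at merge distances of 0 and 100 bp and without a P0.5 epithelium peak within 1 kb. The promoter share of 18.5% was 19.7%, 21.0% and 20.4% under the 3 stricter q values in that order, and 13.6% without a peak within 1 kb. It was 11% for a promoter of 1 kb, 34.0% for 5 kb, 16.3% by summit and 26.7% with predicted transcripts. The CTCF share of 3.28% was 5.85% with equal numbers of peaks, 4.53% over the whole region and 2.1% around the midpoint. The cause was not tested. With q under 0.001 in the 3 lists, which leaves fewer regions, genes with such a region fell to 10 (lens transcription factors), 5 (FGF), 5 (Wnt), 4 (BMP and TGF-β), 1 (Notch), 0 (cell cycle exit), 1 (DNA replication), 3 (autophagy) and 2 (chromatin architecture). Percentiles by −log10 p equalled those by fold enrichment. No paired analysis was possible because the lists pool the 2 libraries of a group, and for the same reason no library could be left out. Called peaks begin at 6 to 8 fragments in the 4 lists, which limits what lower levels can show.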
